A study of Homo sapiens with 12 samples.

Results

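The 43 genes described here are the core of NF-kappaB and Toll-like receptor signalling: 7 receptors, 7 adaptors, 11 receptor-proximal kinases and ubiquitin ligases, 5 IkappaB kinases, 5 NF-kappaB subunits, 5 IkappaB proteins and 3 feedback ubiquitin regulators. They were listed by name as a pathway, at a time when earlier results of these data were known. All 43 were found among the 58381 genes of the count table, and 42 passed the filter on low counts, which kept 15836 genes in all. The gene left out was TLR1, with mean levels between 0.562 and 0.898 CPM in the 4 groups (CPM is a gene's count scaled to the size of its library, with TMM factors for composition).

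Transcripts were measured by poly(A)-selected, strand-specific RNA sequencing in Hs578T and MDA-MB-231, both established triple negative breast cancer cell lines, as CD44 WT and CD44 KO cells with 3 libraries per group. CD44 is a cell surface receptor for the matrix polysaccharide hyaluronan. All 4 groups carried a doxycycline-inducible Cas9 from a lentivirus and were under puromycin. CD44 KO cells also received guides to exons 1 and 5 of CD44 and were sorted as CD29+/CD44-, whereas CD44 WT cells saw the transfection reagent alone and were sorted as CD29+/CD44+. Both are sorted populations rather than clones, and all cells were kept in low serum before RNA was taken, with no added Toll-like receptor ligand or cytokine named in the study's methods. Each line was edited and sorted as a population, so what the sort or the editing of that population did and what loss of CD44 did cannot be told apart. Whether libraries of the same group were separate cultures is not said in the labels, so p-values measure a spread that may be technical.

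Toll-like receptors recognise microbial and damage-associated molecules, and the interleukin-1 receptor shares their intracellular domain. Both recruit the adaptor MYD88 and the IRAK kinases, which act through TRAF6 and the TAK1 complex (MAP3K7 with TAB2 or TAB3) on the IkappaB kinases, while TLR3 signals through the adaptor TICAM1. The IkappaB kinases mark the IkappaB proteins for destruction and so release the NF-kappaB subunits, which switch on inflammatory genes, among them their own inhibitors NFKBIA and TNFAIP3. A second arm runs through MAP3K14, the NF-kappaB-inducing kinase, whose level is held down by TRAF2, TRAF3, BIRC2 and BIRC3.

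Total counts lay between 10257586 and 19725543 per library. CD44 itself checked the labels: it averaged 507 ± 17.6 CPM in CD44 WT and 27.3 ± 2.06 CPM in CD44 KO Hs578T cells, and 362 ± 1.70 against 34.2 ± 5.40 CPM in MDA-MB-231 cells (SD, n = 3). PGR had 0 counts in all 4 groups and ESR1 averaged at most 0.928 CPM. ERBB2, the gene of HER2, averaged 78.7 and 94.5 CPM in CD44 WT and CD44 KO Hs578T cells. In MDA-MB-231 it averaged 76.0 and 61.9 CPM. Whether these levels are those of an unamplified gene was not tested. VIM, the mesenchymal intermediate filament, lay between 3730 and 7262 CPM in every library. EPCAM, an epithelial marker, had 2 counts in each Hs578T group and averaged 17.6 CPM in CD44 WT MDA-MB-231 cells, so Hs578T lacked it. The epithelial keratins KRT8 and KRT18 were present in both lines. They averaged 571 and 405 CPM in CD44 WT Hs578T cells and 377 and 631 CPM in CD44 WT MDA-MB-231 cells. Replicate 1 of CD44 WT MDA-MB-231 stood apart. It differed from the other 2 libraries of its group by a chi-square of 21.1 and 32.3 per degree of freedom over genes, against 4.63 to 16.1 for all other pairs within groups, and it held the lowest level of its group for 25 of the 42 genes (59.5%, against 42.5% of all genes tested). It was not alone in this, since replicate 3 of CD44 WT Hs578T was the lowest of its group for 22 of the 42 (52.4%, against 38.2%) and replicate 3 of CD44 KO Hs578T for 20 (47.6%, against 30.7%). Replicate 1 of CD44 KO MDA-MB-231 was the lowest of its group for 21 (50%, against 41.9%).

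The DNA just before the start sites was read for the letters that NF-kappaB dimers bind. Of the 43 genes, 37 had a promoter window in the RefSeq table (GRCh38.p14, 250 bases before to 50 after the start), 56 windows in all. The kappaB consensus, searched on both strands, was present in 16 of these 56 windows (28.6%) from 14 genes, against 3956 of 35116 windows of all genes (11.3%). The interferon-response core (GAAA, any 2 bases, GAAA), also on both strands, was in 5 of the 56 windows (8.93%, against 3.57% of all windows) and the AP-1 letters TGANTCA in 4 (7.14%, against 7.71%). A match describes letters and does not show a bound site. The sequences below are the 250 bases before the start site, 5′ to 3′ on the gene's own strand, of the 4 genes that carried kappaB letters and changed in a CD44 KO comparison (BIRC3, NFKB1, TRAF3 and IRAK1), and of NFKBIA and TNFAIP3, the classical feedback targets. Capitals mark the kappaB letters.
BIRC3, chr11:102317234-102317483 on the plus strand: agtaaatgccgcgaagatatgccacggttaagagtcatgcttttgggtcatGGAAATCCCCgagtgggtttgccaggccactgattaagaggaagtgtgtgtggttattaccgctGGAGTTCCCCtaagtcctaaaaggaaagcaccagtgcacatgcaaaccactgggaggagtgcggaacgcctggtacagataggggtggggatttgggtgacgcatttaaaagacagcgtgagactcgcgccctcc
NFKB1, chr4:102501109-102501358 on the plus strand: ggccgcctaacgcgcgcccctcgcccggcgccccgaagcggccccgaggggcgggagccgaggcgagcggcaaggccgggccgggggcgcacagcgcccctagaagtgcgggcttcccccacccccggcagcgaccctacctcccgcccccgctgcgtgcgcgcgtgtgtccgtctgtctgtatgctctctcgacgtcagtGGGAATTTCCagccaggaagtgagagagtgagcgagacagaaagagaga
TRAF3, chr14:102777199-102777448 on the plus strand: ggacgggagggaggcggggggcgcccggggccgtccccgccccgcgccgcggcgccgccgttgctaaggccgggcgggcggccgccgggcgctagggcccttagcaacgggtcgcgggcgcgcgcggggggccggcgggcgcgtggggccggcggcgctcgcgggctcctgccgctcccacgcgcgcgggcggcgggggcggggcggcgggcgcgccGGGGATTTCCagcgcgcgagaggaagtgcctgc
IRAK1, chrX:154019903-154020152 on the minus strand: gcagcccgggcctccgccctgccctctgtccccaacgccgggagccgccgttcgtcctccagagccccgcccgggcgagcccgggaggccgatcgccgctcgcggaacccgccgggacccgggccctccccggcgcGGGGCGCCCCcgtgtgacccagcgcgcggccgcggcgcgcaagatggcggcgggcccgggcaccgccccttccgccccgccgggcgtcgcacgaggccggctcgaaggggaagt
NFKBIA, chr14:35404750-35404999 on the minus strand: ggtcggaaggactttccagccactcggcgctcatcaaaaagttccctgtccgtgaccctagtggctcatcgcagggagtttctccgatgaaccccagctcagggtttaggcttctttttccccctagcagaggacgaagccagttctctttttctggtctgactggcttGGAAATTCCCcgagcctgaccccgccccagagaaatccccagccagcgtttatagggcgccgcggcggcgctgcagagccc
TNFAIP3, chr6:137867009-137867258 on the plus strand: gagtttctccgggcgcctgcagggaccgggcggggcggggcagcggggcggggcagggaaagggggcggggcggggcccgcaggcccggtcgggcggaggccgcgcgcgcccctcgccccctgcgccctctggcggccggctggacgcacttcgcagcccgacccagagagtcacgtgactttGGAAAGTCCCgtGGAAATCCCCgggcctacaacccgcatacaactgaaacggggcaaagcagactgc
BIRC3 and TNFAIP3 each hold 2 matches, which in BIRC3 begin 199 and 135 bases before the start. Of the 8 genes that changed in a CD44 KO comparison, 4 thus had kappaB letters, beside 14 of the 37 signalling genes with a window. TLR3 had the interferon-response core, which begins 4 bases before its start and runs across it. IRAK1 also held AP-1 letters across its start.

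In Hs578T cells, 3 receptors changed with CD44 KO: TLR6 and IL1RAP rose, and TLR3 fell from 131 counts to 3 over the libraries of a group. The kinase IRAK1, the ubiquitin ligase BIRC3 and the subunit NFKB1 also fell. These 6 of 42 genes passed edgeR's quasi-likelihood test with the threshold set at 0.01 on the adjusted p, where 7.51% of all genes tested passed. By direction, 2 rose (3.64% of all genes tested) and 4 fell (3.86%). The median fitted log2 fold change of the 42 genes was -0.16, with 32 negative and 10 positive values, whereas that of all genes tested was -0.00, with 7944 negative and 7726 positive values. The CD44 KO and CD44 WT libraries did not overlap for 19 of the 42 genes, against 37.3% of all genes tested.

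In MDA-MB-231 cells the genes that changed all rose: the receptors TLR6 and IL1R1 and the adaptor TRAF3, 3 of 42 against 4.62% of all genes tested, 1.97% higher and 2.65% lower. Their median log2 fold change was 0.14, with 25 positive and 17 negative values, against -0.01 for all genes tested, and it was 0.07 without replicate 1 of CD44 WT. Libraries of the 2 groups did not overlap for 14 of the 42, against 25.5% of all genes tested. The test of the difference between the lines, the change in Hs578T minus that in MDA-MB-231, called TLR3, IL1R1 and BIRC3, all lower, 3 of 42 against 4.12% of all genes tested, 1.79% lower and 2.33% higher. TLR6 was called in both lines, and 34 of the 42 genes were called in neither line nor in the difference. With the replicate numbers of the titles as a block in the fit, none of the 3 MDA-MB-231 calls was made. With the consecutive numbers of the library labels as a block, all 3 were made. In MDA-MB-231 both kinds of number group the libraries alike.

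**Figure D1:**
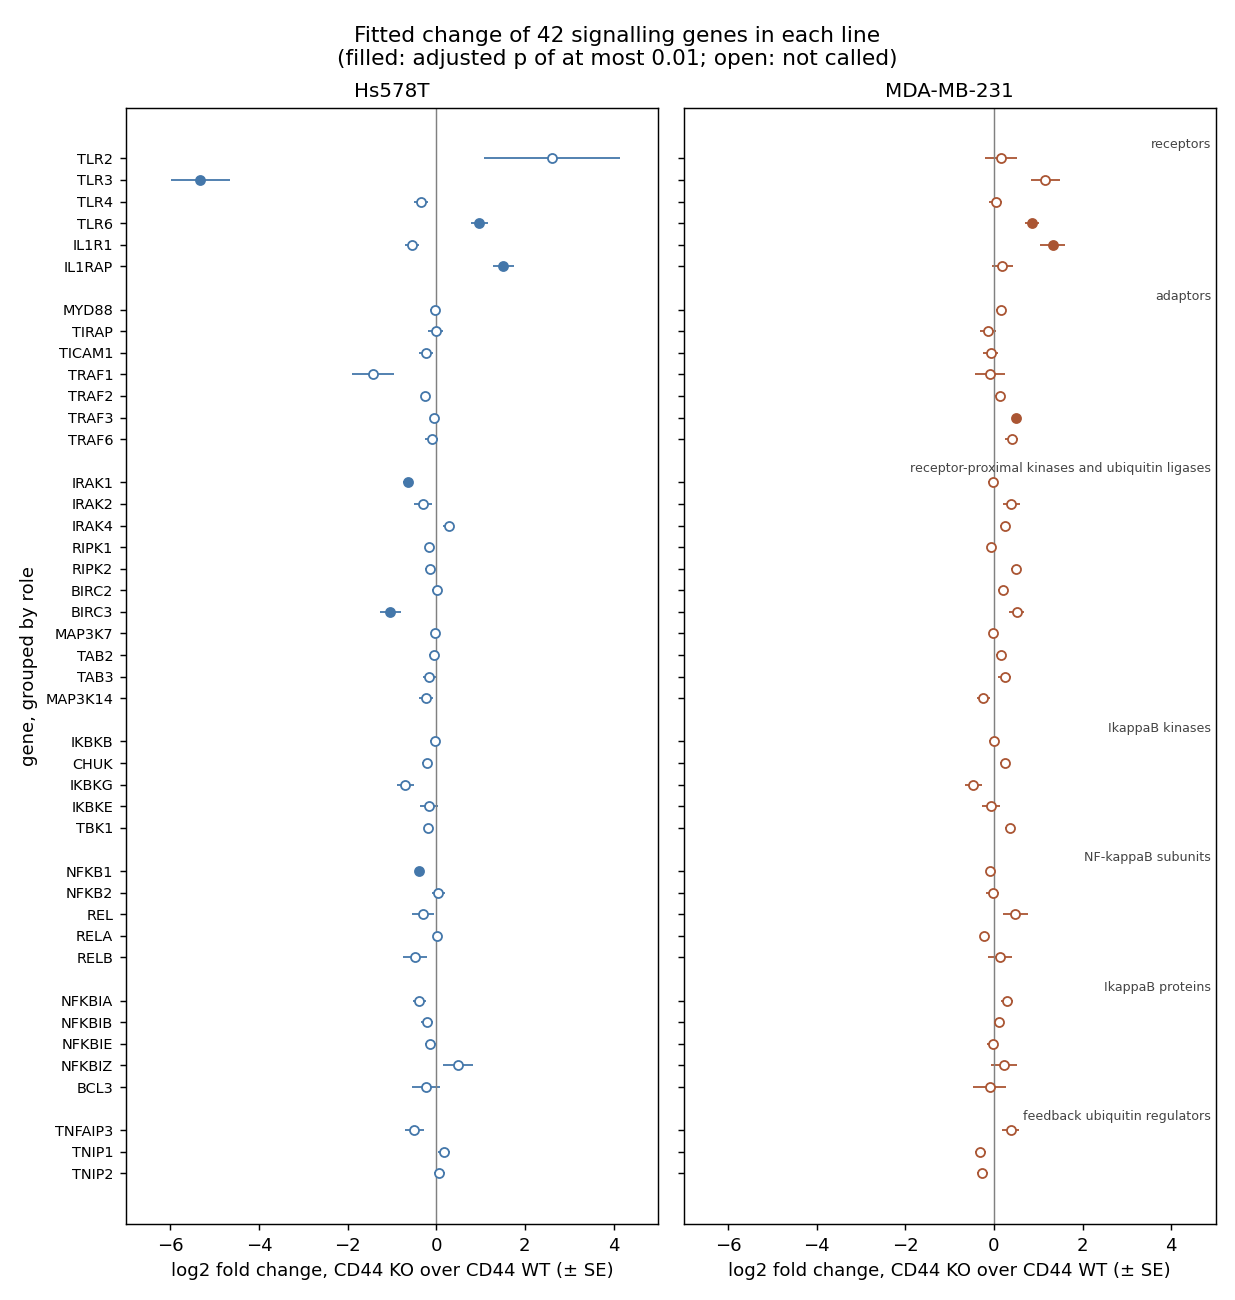
Fitted log2 fold change (x axis, CD44 KO over CD44 WT, bars ± SE of the fit) of 42 genes grouped by role (y axis), with Hs578T on the left and MDA-MB-231 on the right. Filled points passed the test, 6 in Hs578T and 3 in MDA-MB-231. Most points lie close to 0 outside the receptors, and the values of TLR2 and TLR3 in Hs578T rest on 2 and 3 counts in CD44 KO.

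Among the receptors, TLR3, the endosomal sensor of double-stranded RNA (chr4:186069152-186088069, plus strand), gave the widest difference. In Hs578T it stood at 4.92, 3.21 and 1.78 CPM in the CD44 WT libraries and at 0.0802, 0.123 and 0 CPM in the CD44 KO libraries. In MDA-MB-231 it stood at 2.31, 4.28 and 4.38 CPM in CD44 WT (replicate 1, a library of unsure number, and replicate 3, in this order throughout) and at 7.12, 6.46 and 11.3 CPM in CD44 KO. The column of the second library bears a name that the descriptions of replicates 2 and 3 share, and it is called the unnumbered library here. Every CD44 KO library of Hs578T lay below every CD44 WT library, and in MDA-MB-231 the order was the opposite. The Hs578T groups held 131 and 3 counts, a ratio of 46.0 per count sequenced with a 95% counting interval from 15.4 to 226, which covers counting error only (adjusted p = 6.63e-05, edgeR). For MDA-MB-231, the log2 fold change of 1.16 ± 0.332 (SE) had an adjusted p of 0.0382 and was not called. The 2 changes differed (adjusted p = 6.19e-05, edgeR). Both TLR3 calls held whichever of the 12 libraries was left out.

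TLR6 (chr4:38823715-38856817, minus strand), which pairs with TLR2 to sense bacterial lipopeptides, rose in both lines. It went from 2.22, 2.96 and 2.96 CPM to 5.94, 5.61 and 4.35 CPM in Hs578T. In MDA-MB-231 the CD44 WT libraries gave 5.74, 6.50 and 6.65 CPM and the CD44 KO libraries 11.4, 10.9 and 12.1 CPM. In neither line did the groups overlap, and all CD44 KO libraries were the higher. The log2 fold changes were 0.98 ± 0.187 (adjusted p = 0.00240) and 0.86 ± 0.163 (adjusted p = 0.00340), and their difference of 0.12 ± 0.246 was not called (adjusted p = 0.853, edgeR). TLR6 and TLR1 share 57 exonic bases on the same strand, 0.944% of TLR6, and are close paralogs. Its partner TLR2 had 0 counts in CD44 WT and 2 counts in CD44 KO Hs578T cells, so no fold is given. In MDA-MB-231 TLR2 averaged 1.39 ± 0.165 and 1.53 ± 0.217 CPM and was not called (adjusted p = 0.867). The call in Hs578T was lost without replicate 1 of CD44 WT or without replicate 1 or 2 of CD44 KO, with adjusted p-values up to 0.0190. The call in MDA-MB-231 was lost without replicate 1 or 3 of CD44 WT or any CD44 KO library, with adjusted p-values up to 0.0147, and at a log2 fold change of 0.80 without replicate 1 of CD44 WT.

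IL1R1, the signalling receptor for interleukin-1 (chr2:102064544-102179874, plus strand), moved in opposite directions in the 2 lines. In Hs578T the CD44 WT libraries gave 38.9, 35.2 and 31.7 CPM and the CD44 KO libraries 23.3, 25.6 and 23.5 CPM. In MDA-MB-231 it went from 0.600, 1.96 and 1.14 CPM to 3.22, 2.86 and 3.26 CPM. The groups did not overlap in either line, with the CD44 KO libraries below the CD44 WT ones in Hs578T and above them in MDA-MB-231. The rise in MDA-MB-231 was called (log2 fold change 1.33 ± 0.277, adjusted p = 0.00641), the value in Hs578T was not (-0.55 ± 0.157, adjusted p = 0.0295), and the difference between the lines was (-1.87 ± 0.318, adjusted p = 0.00161, edgeR). Even after the rise, IL1R1 in MDA-MB-231 stayed far under its level in Hs578T. Replicate 1 was the lowest CD44 WT library of MDA-MB-231. The call in MDA-MB-231 held in 3 of the 12 fits that left out 1 library, those without replicate 1 or 3 of CD44 WT Hs578T or without the unnumbered library, and log2 fold changes ran from 1.00 to 1.81. It was also lost with MDA-MB-231 fitted alone (adjusted p = 0.0553, edgeR). Without replicate 1 of CD44 WT MDA-MB-231 the log2 fold change was 1.00 with an adjusted p of 0.0181, while the difference between the lines was still called at -1.55 (adjusted p = 0.00205).

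IL1RAP (chr3:190514051-190659750, plus strand), the accessory chain that IL1R1 needs to signal, rose in Hs578T. Its CD44 WT libraries gave 9.64, 12.3 and 10.4 CPM and its CD44 KO libraries 25.4, 38.0 and 29.0 CPM, with no overlap. The log2 fold change was 1.52 ± 0.240 (adjusted p = 5.28e-04, edgeR), called in all 12 fits that left out 1 library. The MDA-MB-231 values were 7.97, 19.9 and 14.8 CPM against 14.99, 17.7 and 15.7 CPM. There the CD44 KO libraries lay within the CD44 WT range, with a log2 fold change of 0.19 ± 0.242 (adjusted p = 0.70). The difference between the lines, 1.33 ± 0.340, did not pass (adjusted p = 0.0220). Within Hs578T, then, the 2 chains of the receptor had fitted values of opposite sign, of which IL1RAP alone was called.

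TLR4, the receptor for bacterial lipopolysaccharide, was called in neither line. It gave 21.5, 21.2 and 22.4 CPM in CD44 WT and 19.7, 16.4 and 15.3 CPM in CD44 KO Hs578T cells (log2 fold change -0.34 ± 0.156, adjusted p = 0.168). The 33.6, 55.1 and 44.0 CPM of CD44 WT MDA-MB-231 enclosed the 43.5, 45.2 and 48.1 CPM of CD44 KO (0.04 ± 0.145, adjusted p = 0.919). Of the 6 receptors tested, 2 were called higher and 1 lower in Hs578T, and 2 were called higher in MDA-MB-231. In MDA-MB-231 all 6 fitted values were positive, against 45% of those of all genes tested. Without replicate 1 of CD44 WT MDA-MB-231, those of IL1RAP and TLR4 were negative (-0.096 and -0.12).

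**Figure D2:**
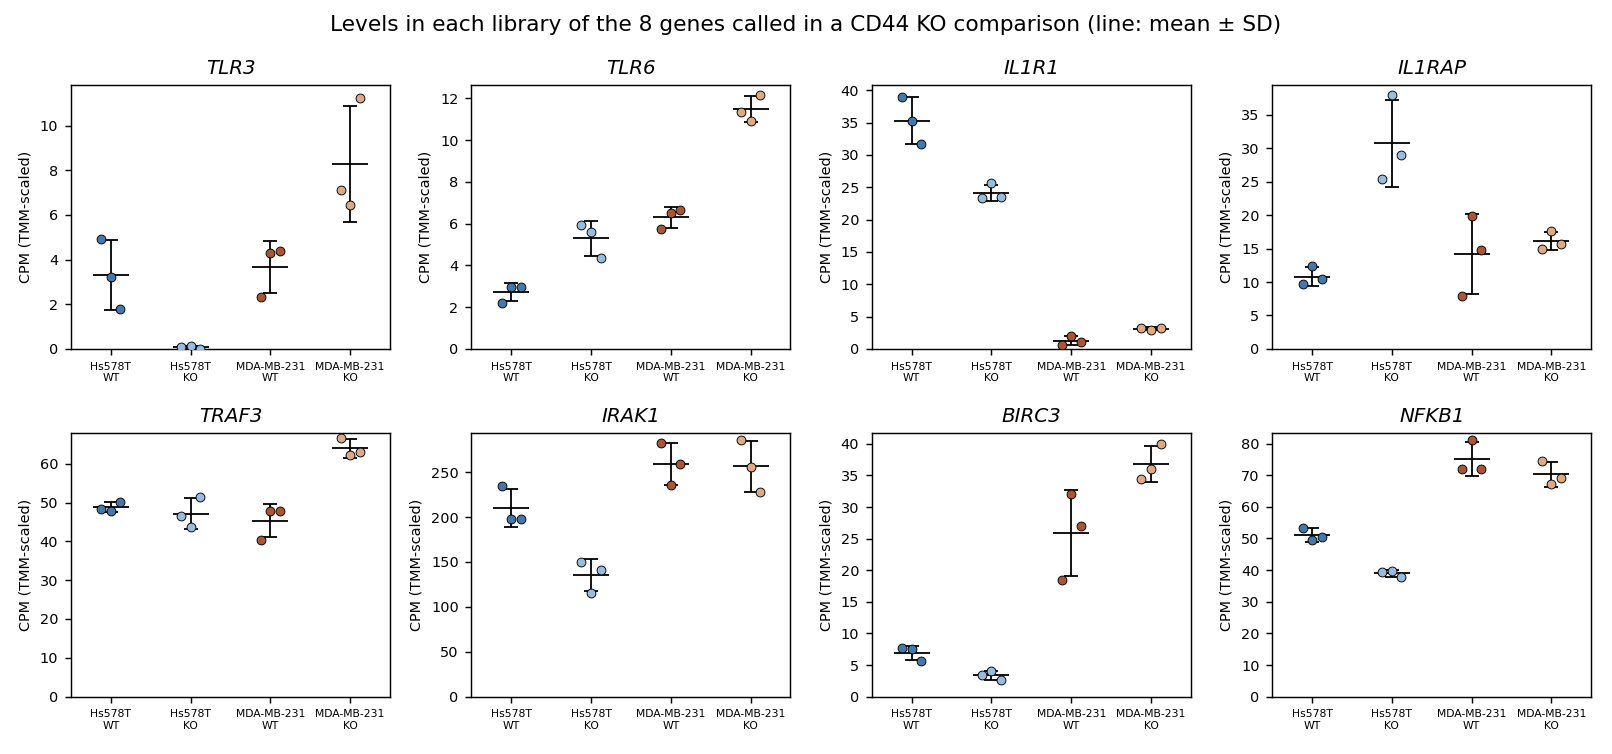
Level in each library (points, TMM-scaled CPM on a linear y axis from 0, 1 panel per gene with its own scale) of the 8 genes called in a CD44 KO comparison, with group means ± SD (n = 3). TLR3 lies at or under 0.123 CPM in the CD44 KO libraries of Hs578T, TLR6 is higher in CD44 KO in both lines, and BIRC3 and IL1R1 show opposite orders in the 2 lines.

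Among the 7 adaptors none was called in Hs578T. All 7 fitted values there were negative, against 50.2% of those of all genes tested. The values of MYD88 and TRAF3 were positive without replicate 2 of CD44 KO (0.042 and 0.0065). That of MYD88 was also positive without replicate 2 of CD44 WT (0.018). TRAF3 (chr14:102777476-102911500, plus strand), which restrains MAP3K14 and also serves TLR3, rose in MDA-MB-231. Its CD44 WT libraries gave 40.4, 47.9 and 47.7 CPM and its CD44 KO libraries 66.7, 62.2 and 63.0 CPM, without overlap. The log2 fold change was 0.50 ± 0.0950 (adjusted p = 0.00364, edgeR), and 0.42 without replicate 1 of CD44 WT (adjusted p = 0.00631). The call was lost without any of the 3 CD44 KO libraries, with adjusted p-values up to 0.0172, and with MDA-MB-231 fitted alone (adjusted p = 0.0285). In Hs578T the 48.2, 47.9 and 50.2 CPM of CD44 WT lay within the 46.5, 43.6 and 51.3 CPM of CD44 KO. The difference between the lines was -0.55 ± 0.134 and not called (adjusted p = 0.0181).

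MYD88, the adaptor shared by most of these receptors, stood at 21.8, 24.3 and 22.8 CPM in CD44 WT and 23.5, 20.5 and 23.7 CPM in CD44 KO Hs578T cells. In MDA-MB-231 it stood at 36.6, 41.2 and 42.3 CPM and at 43.5, 39.1 and 51.3 CPM. The groups overlapped in both lines, with adjusted p-values of 0.926 and 0.463. TRAF6, the ligase downstream of MYD88, lies 1255 kb from the end of CD44 on chromosome 11 and was called in neither line (adjusted p = 0.711 in Hs578T and 0.0940 in MDA-MB-231). TRAF1, itself a known NF-kappaB target and named here after its values were seen, had the largest fitted value among the adaptors, -1.43 ± 0.469 in Hs578T, without passing (adjusted p = 0.0542).

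Among the 11 receptor-proximal kinases and ubiquitin ligases, IRAK1 and BIRC3 fell in Hs578T and none was called in MDA-MB-231. IRAK1, the kinase that MYD88 recruits (chrX:154010500-154019980, minus strand), gave 235, 198 and 197 CPM in CD44 WT and 150, 116 and 141 CPM in CD44 KO Hs578T cells. All 3 CD44 KO libraries were below all 3 CD44 WT libraries, and the log2 fold change was -0.63 ± 0.116 (adjusted p = 0.00178, edgeR). For MDA-MB-231, the 282, 236 and 259 CPM of CD44 WT and the 285, 256 and 228 CPM of CD44 KO overlapped (adjusted p = 0.994). The difference between the lines was -0.62 ± 0.163, short of a call (adjusted p = 0.0257). The Hs578T call was lost without replicate 1 of CD44 WT or without replicate 2 of CD44 KO, with adjusted p-values up to 0.0139.

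BIRC3 (cIAP2, chr11:102317450-102339403, plus strand) is a ubiquitin ligase of the TNF receptor complex and a known NF-kappaB target. In Hs578T it gave 7.70, 7.49 and 5.67 CPM in CD44 WT and 3.37, 4.07 and 2.64 CPM in CD44 KO. In MDA-MB-231 it gave 18.5, 32.0 and 27.0 CPM in CD44 WT and 34.5, 36.1 and 39.9 CPM in CD44 KO. Both lines showed groups apart, CD44 KO being the lower in Hs578T while it was the higher in the other line. The fall in Hs578T was called (-1.03 ± 0.229, adjusted p = 0.00656), the value in MDA-MB-231 was not (0.51 ± 0.175, adjusted p = 0.0837), and the difference between the lines was (-1.54 ± 0.288, adjusted p = 0.00327, edgeR). The call in Hs578T held in 7 of the 12 fits without 1 library and was lost without any of its libraries but replicate 3 of CD44 WT. The call of the difference held in 8, and was lost without replicate 1 or 2 of CD44 WT or replicate 1 or 3 of CD44 KO in Hs578T. BIRC2, its neighbour and paralog, averaged 49.7 ± 2.80 and 50.4 ± 1.42 CPM in Hs578T and was called in neither line. Other genes of this role had fitted values between -0.30 and 0.28 in Hs578T cells, and between -0.24 and 0.50 in MDA-MB-231 cells. The largest of the latter belonged to RIPK2, the kinase of the NOD receptors, whose adjusted p was 0.0118. RIPK2 is named after its values were seen.

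No IkappaB kinase was called in either CD44 KO comparison. IKBKG (NEMO), the scaffold subunit of the complex, came closest in Hs578T at -0.69 ± 0.186 (adjusted p = 0.0201), with means of 7.17 ± 0.652 CPM in CD44 WT and 4.42 ± 0.579 CPM in CD44 KO. TBK1, which works downstream of TICAM1, came closest in MDA-MB-231 at 0.35 ± 0.105 (adjusted p = 0.0451). Both are named after their values were seen.

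Of the 5 NF-kappaB subunits, NFKB1 fell in Hs578T and none was called in MDA-MB-231. NFKB1 encodes p105, the precursor of the subunit p50 (chr4:102501329-102617302, plus strand). It gave 53.4, 49.4 and 50.4 CPM in CD44 WT and 39.4, 39.6 and 37.8 CPM in CD44 KO Hs578T cells, tight groups without overlap. The log2 fold change was -0.39 ± 0.0874 (adjusted p = 0.00685, edgeR). The call was lost in 9 of the 12 fits that left out 1 library, namely each fit without an Hs578T library and those without replicate 3 of CD44 WT or replicate 2 or 3 of CD44 KO MDA-MB-231, with adjusted p-values up to 0.0436 and log2 fold changes from -0.41 to -0.36. With no filter on low counts it was lost as well (adjusted p = 0.0239). In MDA-MB-231 the 71.9, 81.3 and 71.9 CPM of CD44 WT and the 74.6, 67.1 and 69.0 CPM of CD44 KO overlapped (adjusted p = 0.545).

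RELA (p65), the main transactivating subunit, gave 83.5, 76.6 and 82.3 CPM in CD44 WT and 82.2, 80.4 and 81.8 CPM in CD44 KO Hs578T cells (0.01 ± 0.0807, adjusted p = 0.958). In MDA-MB-231 it gave 140, 128 and 129 CPM against 106, 120 and 112 CPM, groups that did not overlap but did not pass the test (-0.23 ± 0.0797, adjusted p = 0.0847). REL shares 43.3% of its exonic bases with another gene on its strand, so its counts are uncertain.

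The IkappaB proteins and the feedback regulators, several of which are known NF-kappaB targets, were not called in either CD44 KO comparison, 8 genes in all. NFKBIA (IkappaB-alpha) gave 25.5, 25.9 and 17.4 CPM in CD44 WT and 16.4, 18.4 and 18.1 CPM in CD44 KO Hs578T cells, and 41.1, 42.1 and 39.5 CPM against 43.6, 48.9 and 58.6 CPM in MDA-MB-231. The Hs578T groups overlapped and those of MDA-MB-231 did not, with adjusted p-values of 0.101 and 0.211. The difference between the lines was -0.68 ± 0.203 (adjusted p = 0.0442).

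TNFAIP3 (A20), the ubiquitin-editing brake on the pathway, gave 6.10, 5.43 and 3.64 CPM in CD44 WT and 3.61, 4.07 and 3.07 CPM in CD44 KO Hs578T cells. In MDA-MB-231 it gave 6.77, 9.27 and 7.06 CPM against 9.06, 9.59 and 11.4 CPM. The groups overlapped in both lines (adjusted p = 0.155 and 0.269), and the difference between the lines was -0.87 ± 0.293 (adjusted p = 0.0727). The kappaB letters in the promoters of NFKBIA and TNFAIP3, printed above, are thus in genes that were not called. Those of BIRC3, NFKB1 and IRAK1 are in genes called lower in Hs578T alone, and those of TRAF3 in a gene called higher in MDA-MB-231 alone. How the letters relate to the changes was not tested.

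Levels between genes were set side by side only per kilobase of exon. IRAK1 had the highest mean of the 43 in all 4 groups, at 52.6 ± 5.36 and 33.9 ± 4.43 CPM per kb in CD44 WT and CD44 KO Hs578T cells and at 64.8 ± 5.80 and 64.1 ± 7.17 in MDA-MB-231. In CD44 KO Hs578T cells TAB2, a TAK1-binding protein, was level with it at 33.8 ± 1.89 CPM per kb. The receptors were the lowest role, with median levels of 0.491 CPM per kb in CD44 WT Hs578T and 0.544 in CD44 WT MDA-MB-231, where the median of all 43 was 5.60 and 5.40. IL1R1 led the receptors in CD44 WT Hs578T at 4.98 ± 0.512 CPM per kb, above TLR2 at 0, while TLR4 led in CD44 WT MDA-MB-231 at 3.33 ± 0.809, above TLR1 at 0.124 ± 0.0477.

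Among the adaptors of CD44 WT Hs578T cells TRAF2 was highest (7.68 ± 0.121 CPM per kb) and TRAF1 lowest (0.492 ± 0.167), whereas in CD44 WT MDA-MB-231 MYD88 was highest (10.0 ± 0.760) and TRAF1 again lowest (1.46 ± 0.436). Among the kinases and ligases the lowest was BIRC3 in CD44 WT Hs578T (0.925 ± 0.148) and TAB3, a relative of TAB2, in CD44 WT MDA-MB-231 (1.88 ± 0.464). IKBKG was the lowest IkappaB kinase in both (2.03 ± 0.185 and 1.81 ± 0.391), under TBK1 in Hs578T (8.23 ± 0.396) and CHUK, the catalytic subunit IKK-alpha, in MDA-MB-231 (9.87 ± 1.93).

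These orders are of means. In CD44 WT MDA-MB-231 the ranges of 1 SD overlapped between MYD88 and TRAF2, TRAF1 and TIRAP, CHUK and TBK1, and TLR1 and IL1R1.

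RELA was the highest NF-kappaB subunit in all 4 groups and REL the lowest, at 14.8 ± 0.675 and 0.838 ± 0.0534 CPM per kb in CD44 WT Hs578T. Another gene shares 43.3% of REL's exonic bases. Fragments there were left out of its counts but the bases stayed in its length, which can understate its level per kb. NFKBIA had the highest mean of the IkappaB proteins in all 4 groups, at 9.67 ± 2.02 in CD44 WT Hs578T and 17.2 ± 0.563 in CD44 WT MDA-MB-231, and the lowest was NFKBIZ in the former (0.803 ± 0.170) and BCL3 in the latter (1.72 ± 1.05). The range of 1 SD of NFKBIA overlapped that of NFKBIE in both Hs578T groups and that of NFKBIB in both MDA-MB-231 groups, and the ranges of BCL3 and NFKBIZ overlapped in MDA-MB-231. Among the feedback regulators TNIP1, an A20-binding protein, was highest and TNFAIP3 lowest throughout, at 19.2 ± 0.570 and 1.00 ± 0.252 in CD44 WT Hs578T and 38.9 ± 3.13 and 1.52 ± 0.270 in CD44 WT MDA-MB-231.

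**Figure D3:**
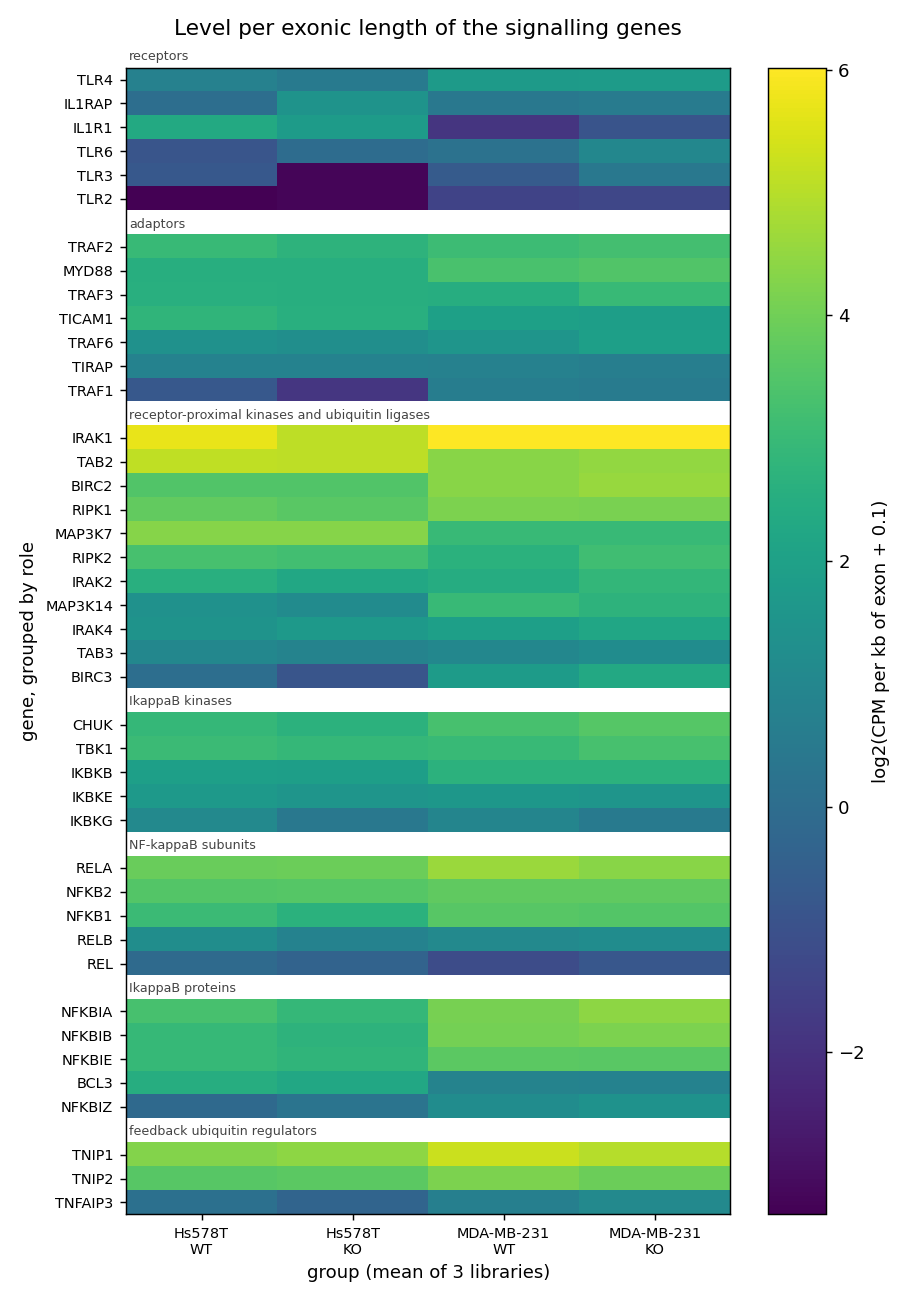
Mean level of the 42 tested genes in the 4 groups (columns, 3 libraries each), as log2 of CPM per kb of exon plus 0.1 (colour scale), with genes grouped by role (rows) and ordered within a role by mean. IRAK1 is the brightest row, level with TAB2 in CD44 KO Hs578T, the receptors are dark, and IL1R1 is brighter in Hs578T than in MDA-MB-231.

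Between the unedited lines, 27 of the 42 genes differed, against 61.5% of all genes tested, and 30 did not overlap, against 71.8%. Of the 27, 20 were lower (29.4% of all genes tested) and 7 higher (32.2%) in Hs578T, and the median log2 difference was -0.41, against 0.04 for all genes tested. IL1R1 was 4.84 ± 0.224 log2 units higher in Hs578T (adjusted p = 4.27e-11, edgeR). All 5 IkappaB proteins were called, 4 of them lower in Hs578T, NFKBIA among them at -0.83 ± 0.144 (adjusted p = 9.23e-05). RELA (-0.71 ± 0.0805, adjusted p = 1.10e-06), NFKB1 (-0.55 ± 0.0860, adjusted p = 3.20e-05), MYD88 (-0.80 ± 0.117, adjusted p = 1.77e-05), TLR4 (-1.02 ± 0.150, adjusted p = 1.81e-05) and BIRC3 (-1.89 ± 0.195, adjusted p = 4.14e-07) were also lower in Hs578T. TLR3 was not called (-0.13 ± 0.355, adjusted p = 0.759). Everything that sets the 2 lines apart goes with this comparison and cannot be told apart.

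A list of 79 further genes (receptors, adaptors and regulators, and NF-kappaB targets) was read in the same fit. Of these 78 were found and 58 tested. In Hs578T 4 were called higher and 2 lower, 6 of 58 (10.3%, against 7.51% of all genes tested). In MDA-MB-231 1 was called higher and 3 lower, 4 of 58 (6.9%, against 4.62%). Median log2 fold changes were 0.10 and 0.02. Among the 24 NF-kappaB targets tested, 1 was called in each direction in each line (8.33% in each, against the same 7.51% and 4.62%). For the difference between the lines 6 of the 58 were called (10.3%, against 4.12% of all genes tested).

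CCL2, the monocyte chemoattractant and an NF-kappaB target, fell in both lines. It gave 6.17, 5.92 and 4.06 CPM in CD44 WT and 1.68, 2.34 and 1.45 CPM in CD44 KO Hs578T cells (-1.53 ± 0.312, adjusted p = 0.00371). In MDA-MB-231 it gave 70.9, 36.0 and 47.6 CPM against 4.15, 2.86 and 3.95 CPM (-3.85 ± 0.257, adjusted p = 2.54e-07, edgeR). The groups were apart in both lines and the fall was larger in MDA-MB-231 (difference 2.31 ± 0.420, adjusted p = 0.00269). The call in Hs578T was lost without replicate 1 or 2 of CD44 WT or replicate 1 or 3 of CD44 KO, with adjusted p-values up to 0.0234, and that of the difference without replicate 2 of CD44 KO Hs578T (adjusted p = 0.0223). CXCL8 and IL6, a chemokine and a cytokine that NF-kappaB controls, were not called. CXCL8 (interleukin-8) averaged 0.402 ± 0.228 and 0.317 ± 0.0679 CPM in Hs578T and 9.88 ± 6.12 and 13.9 ± 3.98 CPM in MDA-MB-231. IL6 averaged 0.917 ± 0.287 CPM in CD44 WT and 3.04 ± 1.69 CPM in CD44 KO Hs578T cells (1.73 ± 0.448, adjusted p = 0.0163), and 1.03 ± 0.666 and 1.04 ± 0.216 CPM in MDA-MB-231.

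IL1B, the ligand of IL1R1, rose in MDA-MB-231 from 3.26, 5.35 and 7.38 CPM to 9.83, 18.2 and 36.1 CPM (1.99 ± 0.393, adjusted p = 0.00453), groups that did not overlap. The call was lost without replicate 1 of CD44 WT (1.73, adjusted p = 0.0197), without the unnumbered CD44 WT library, and without replicate 2 or 3 of CD44 KO (adjusted p up to 0.0208), and also with DESeq2 (adjusted p = 0.0154) and with MDA-MB-231 fitted alone (adjusted p = 0.0296). In Hs578T IL1B had 5 and 8 counts. VCAM1, the adhesion molecule, rose in Hs578T from 4.16, 2.71 and 0.677 CPM to 7.30, 16.2 and 9.89 CPM (2.12 ± 0.454, adjusted p = 0.00911) and had 0 counts in MDA-MB-231. Its call held in 6 of the 12 fits without 1 library, and was lost without replicate 2 of CD44 WT or any CD44 KO library of Hs578T, and without replicate 3 of CD44 WT or replicate 2 of CD44 KO MDA-MB-231 (adjusted p up to 0.0560). DESeq2 did not call it (adjusted p = 0.0564).

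PELI2, a ubiquitin ligase acting on the IRAK kinases, moved in opposite directions. It rose in Hs578T from 1.11, 0.905 and 0.423 CPM to 3.61, 2.28 and 3.07 CPM (1.83 ± 0.345, adjusted p = 0.00221). In MDA-MB-231 it fell from 9.08, 11.4 and 7.95 CPM to 0.847, 1.54 and 0.790 CPM (-3.07 ± 0.300, adjusted p = 1.17e-05). The difference between the lines was 4.89 ± 0.456 (adjusted p = 8.25e-06, edgeR). The call in Hs578T was lost without replicate 1 of CD44 KO (adjusted p = 0.0124).

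TNFRSF11A, the receptor RANK, rose in Hs578T from 0.556 ± 0.125 to 1.96 ± 0.404 CPM (1.84 ± 0.261, adjusted p = 2.03e-04). RBCK1 (HOIL-1), a subunit of the ligase that makes linear ubiquitin chains, rose there from 161 ± 10.2 to 284 ± 22.03 CPM (0.82 ± 0.105, adjusted p = 8.07e-05). MALT1, a protease that feeds antigen receptor signals into the pathway, fell from 42.2 ± 4.002 to 27.3 ± 3.34 CPM (-0.64 ± 0.136, adjusted p = 0.00509, edgeR). The MALT1 call was lost without replicate 1 or 2 of either Hs578T group, with adjusted p-values up to 0.0358. All 3 genes also differed between the lines, with values in MDA-MB-231 of -0.07, -0.37 and 0.56 that were not called.

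TOLLIP, an inhibitor of IRAK1 (chr11:1274371-1309654, minus strand), fell in MDA-MB-231 from 61.4, 58.2 and 67.6 CPM to 35.3, 38.5 and 40.0 CPM, without overlap (-0.72 ± 0.0972, adjusted p = 2.40e-04, edgeR). It lies on the short arm of chromosome 11 between the chromosome end and CD44. Of the 225 genes tested there, 79 were called lower and 0 higher in MDA-MB-231 with a median log2 fold change of -0.57, against 4 lower and 4 higher with a median of 0.08 in Hs578T. The part of this in the TOLLIP result was not tested. In Hs578T TOLLIP averaged 91.7 ± 7.34 and 95.8 ± 6.35 CPM and was not called.

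**Figure D4:**
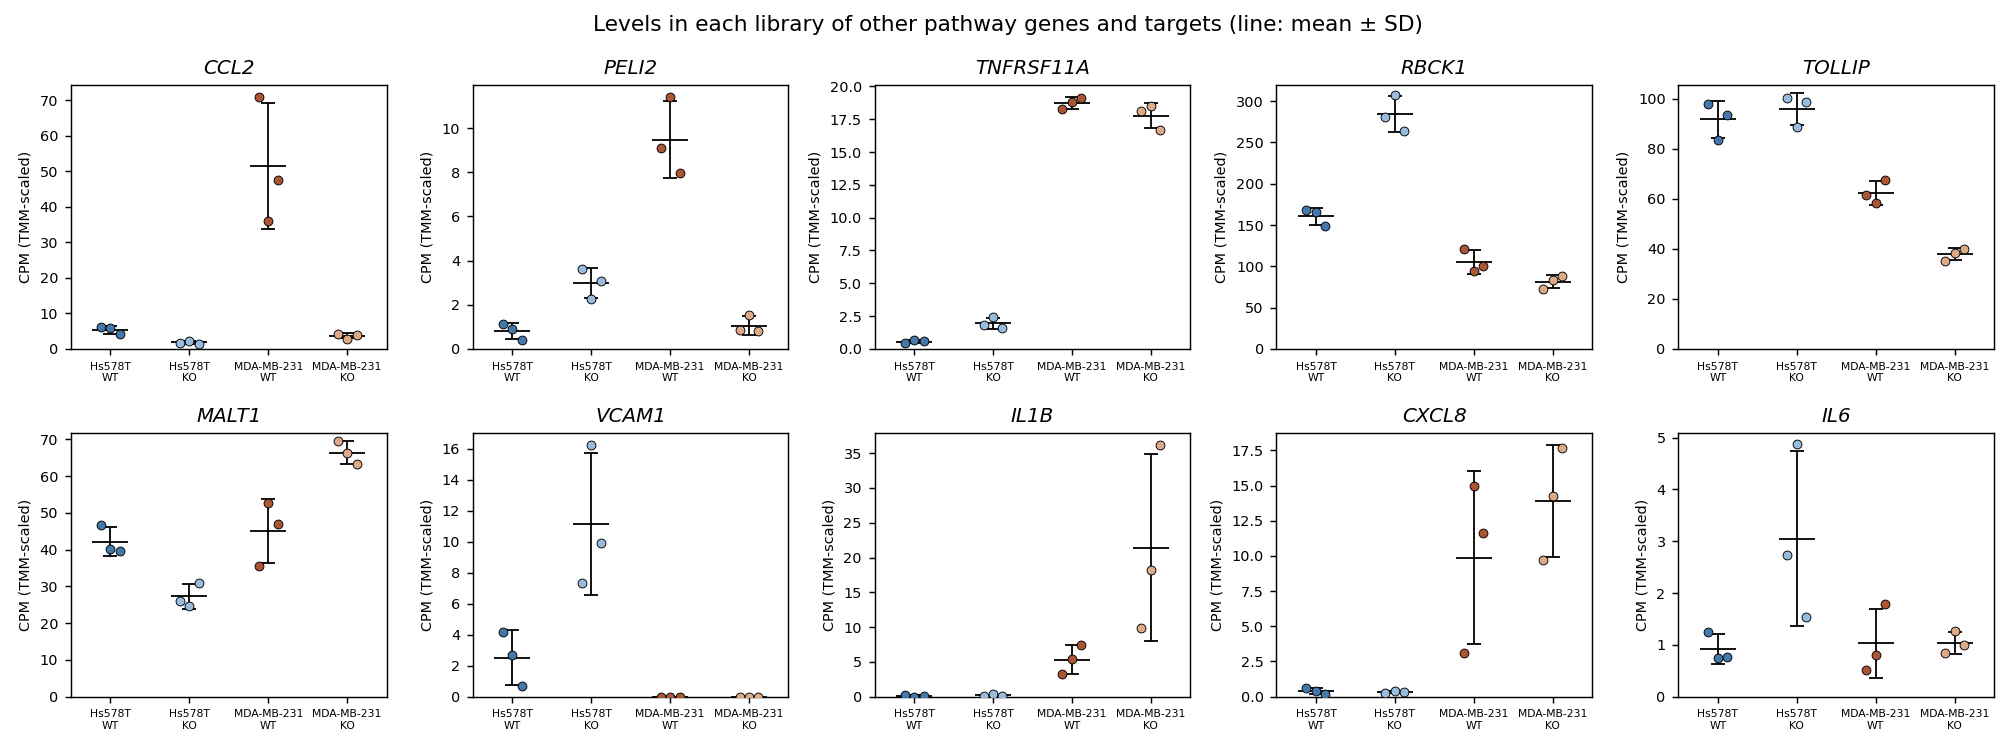
Level in each library (points, TMM-scaled CPM on a linear y axis from 0, 1 panel per gene with its own scale) of the pathway genes and targets called in a CD44 KO comparison, with CXCL8 and IL6, and group means ± SD (n = 3). CCL2 is lower in CD44 KO in both lines, PELI2 shows opposite orders, and the CXCL8 groups overlap.

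Markers of other cell types were read in the same libraries, since leukocytes use the same receptors. The summed level of the 6 leukocyte markers was 4.82 to 5.68 CPM in CD44 WT and 7.51 to 9.39 CPM in CD44 KO Hs578T libraries, and 0.514 to 0.980 and 0.762 to 2.47 CPM in MDA-MB-231. In Hs578T the difference lay in PTPRC (CD45), which rose from 0.369 ± 0.179 to 3.78 ± 0.895 CPM (3.33 ± 0.383, adjusted p = 3.19e-05, edgeR). With 10 and 2 counts in CD44 WT and CD44 KO MDA-MB-231 it was not called there, and the difference between the lines was called (5.66 ± 0.924, adjusted p = 0.00116). CSF1R averaged 4.10 ± 0.301 and 4.14 ± 0.334 CPM in CD44 WT and CD44 KO Hs578T cells. In MDA-MB-231 it had 16 and 61 counts, and it was called in neither line. MS4A1 had 0 counts in every group, and ITGAM, CD3E and TYROBP had at most 20 counts in any group. The 2 endothelial markers summed to 11.5 to 13.8 CPM in CD44 WT and 14.6 to 15.2 CPM in CD44 KO Hs578T libraries. In MDA-MB-231 they summed to 1.37 to 3.16 and 1.44 to 4.05 CPM. Neither was called in a CD44 KO comparison. The part of these transcripts in the receptor results was not tested.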

How the data were processed

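Total RNA from 12 samples was sequenced as strand-specific mRNA libraries. Per the file headers and the submitters' processing notes, the authors aligned reads to GRCh38 with HISAT2 2.1.0 and counted properly paired fragments per gene on the reverse strand with featureCounts 1.6.2 and GENCODE 28, so the deposited values are raw counts; fragments shared by overlapping genes were left out. Genes were named by Ensembl identifier. The deposited exonic length, another column of the table, gave levels per kb.

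Genes with over 1 CPM in at least 2 libraries and at least 300 nt of exon were tested with edgeR 4.0.16 (TMM, quasi-likelihood test) in R 4.3.3, over all 12 libraries with 4 group means, with calls made where the p adjusted after Benjamini and Hochberg did not exceed 0.01. The study's text gives the length limit the other way round. On simulated counts for the Hs578T comparison, 79% of 100 genes changed by 1 log2 unit and 95% of 100 changed by 2 were called, of 15547 genes. For the difference between the lines these shares were 56% and 84%. The changed genes were drawn from those averaging over 2 CPM, so the shares do not cover genes at lower levels.

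The members and gene lists were chosen with earlier results of these data known. Genes named are those called in a CD44 KO comparison or in the difference between the lines, the highest and lowest of each role per length, and NFKB1, RELA, NFKBIA, TNFAIP3, MYD88, TLR4, IL1R1, CXCL8, IL6 and CCL2 whatever their result. Others are said to be named after their values were seen, or stand beside a named gene for context, as TRAF6 and BIRC2 do. One CD44 WT MDA-MB-231 column bears a name that the descriptions of replicates 2 and 3 share, so it was placed by group and is called the unnumbered library. SOD2 was not matched. Alternatives tried were RLE factors, DESeq2 1.42.0, no filter, each line alone, an adjusted p of 0.05, 2 replicate blocks and leaving out each library. Intervals cover counting error only. Replicate numbers in the titles did not pair the samples in Hs578T, and whether they did in MDA-MB-231 was not settled.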

Additional observations from a re-analysis of the deposited data

Results flagged for a closer look

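Loss of CD44 went with unequal changes in the 2 lines for 10 of the genes read here, by the edgeR test of the difference (Hs578T minus MDA-MB-231, log2 units), which called 4.12% of all genes tested. They were 3 of the 42 signalling genes, 6 of the 58 other pathway genes and targets and 1 of the 10 markers of cell types. Among the signalling genes these were TLR3 at -6.48, a fitted value that rests on 3 counts in CD44 KO Hs578T cells, IL1R1 at -1.87 and BIRC3 at -1.54. Among the other pathway genes and targets they were TNFRSF11A at 1.91, RBCK1 at 1.20, TOLLIP at 0.78, PELI2 at 4.89, MALT1 at -1.20 and CCL2 at 2.31. The marker was PTPRC at 5.66, a fitted value that rests on 2 counts in CD44 KO MDA-MB-231 cells. Fitted changes had opposite signs in the 2 lines for 9 of the 10, and CCL2 fell in both. A choice of genes by this difference favours opposite signs, and their share among all genes it called was not counted. Of the 9, PELI2 alone was called in both lines. With 3 libraries per group no library was tested for standing apart in a single gene.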

How the results depend on the processing

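Over the 42 genes, calls in Hs578T (6) numbered 2 to 8 when 1 library was left out, those in MDA-MB-231 (3) 0 to 3, those of the difference between the lines (3) 2 to 4 and those between the unedited lines (27) 25 to 28. The calls in MDA-MB-231 rose to 6 with no filter on low counts and with the threshold at 0.05, and fell to 1 (TLR6) with each line alone. Those of the difference were 7 with DESeq2, 7 with no filter and 9 at an adjusted p of 0.05. All-gene counts also moved. In Hs578T the 1189 calls became 1984 with no filter and 2253 at an adjusted p of 0.05, and 605 to 1685 without 1 library. In MDA-MB-231 the 731 became 1138 with DESeq2, 1370 with no filter, 315 with the line alone, 1518 at an adjusted p of 0.05 and 355 to 763 without 1 library. For the difference the 653 became 1179, 1373 and 1670 with DESeq2, no filter and the adjusted p of 0.05, and 396 to 804 without 1 library, and 8669 to 9827 genes were called between the unedited lines. RLE factors moved 1 level by more than its SD. The cause of these changes was not tested.

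In Hs578T, replicate numbers in the titles did not pair the samples: same-numbered libraries correlated at -0.0957 to 0.0222. Hs578T libraries from the same run of consecutive label numbers correlated at 0.0315 to 0.134. There each CD44 WT library correlated best with the CD44 KO library of its own run. In MDA-MB-231 the title numbers group the libraries as the consecutive label numbers do. Same-numbered libraries there correlated at 0.00793 to 0.164, so pairing in that line was not settled. Not every library correlated best with its own number. With the title numbers as a block, 5, 0 and 3 of the 42 genes were called in Hs578T, MDA-MB-231 and the difference. The calls of TLR6 and NFKB1 in Hs578T and of TLR6, IL1R1 and TRAF3 in MDA-MB-231 were not made with this block (adjusted p from 0.0107 to 0.0217), while TRAF1 was called in Hs578T. VCAM1 and MALT1 were not called with it either (0.0144 and 0.0135). With the consecutive label numbers as a block the counts were 6, 3 and 3.

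Values that changed sign were not called. IRAK1 in MDA-MB-231 (-0.01) was 0.0073 with no filter and 0.00065 with the line alone. IL6 in MDA-MB-231 (0.02) was -0.050 with the label numbers as a block. Leaving out 1 library gave -0.098 to 0.076 for IRAK1, -0.30 to 0.68 for IL6, -0.096 to 0.50 for IL1RAP and -0.12 to 0.23 for TLR4 in MDA-MB-231, -0.10 to 0.0065 for TRAF3, -0.067 to 0.042 for MYD88, -0.023 to 0.035 for RELA and -0.69 to 0.13 for CXCL8 in Hs578T, -0.019 to 0.22 for TLR6 in the difference and -0.54 to 0.16 for TLR3 between the unedited lines. The median over the 42 genes kept its sign in every alternative run, at -0.19 to -0.14 in Hs578T and 0.07 (without replicate 1 of CD44 WT) to 0.19 in MDA-MB-231. At these depths genes under about 1 CPM carry few counts, and a missed call there does not show that levels were alike.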
